A study of Mus musculus with 9 samples.

Results

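RLTR names are Repbase entries for repeated sequences of mouse endogenous retroviruses, most of them long terminal repeats (LTRs). They were taken as every name of the repeat tables that starts with RLTR and does not contain IAP, which gave 143 of the 312 repeat names. The series compared DNA fractions of E14Tg2a, a line of mouse embryonic stem cells (E14, 129P2 background) kept on gelatin with LIF. The 3 HRS libraries hold DNA that stays with the high-salt-extracted nucleus after digestion with the restriction enzyme StyI, the 3 Loop libraries hold the DNA released from it, and the 3 input libraries hold genomic DNA and are titled D0, D12 and D21, which the labels do not explain. All 9 libraries carry the same cell line and background, with no knockout and no drug, and the labels do not tie a replicate to a culture of its own. The p-values measure the spread between these libraries, which may be technical.

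An LTR flanks each end of a retroviral insertion and carries its promoter, its enhancer and its polyadenylation signal. Recombination between both LTRs of an insertion leaves a solitary LTR, so such elements lie scattered through the genome as ready-made regulatory sequence. In mouse embryonic stem cells RLTR9 elements are known for binding pluripotency factors. RLTR1, RLTR4 and RLTR6 belong to the gammaretrovirus-like class ERV1, with RLTR4 related to murine leukaemia virus, while RLTR9, RLTR10 and RLTR13 belong to class ERVK, and RLTRETN is the LTR of the early transposon ETn.

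The name RLTR does not always mean an LTR. RLTR6I_MM and RLTR4I_MM carry the letter by which Repbase marks internal retroviral sequence, and these 2 names alone held 31.5% of the mean RLTR counts. The 143 names fell into 40 families by the digits after RLTR, the largest being RLTR13 with 24 names, RLTR20 with 13, RLTR9 with 12 and RLTR12 with 10. Counts were concentrated, since 24 names held 80% of them. Of the 143 names, 135 were listed in all 9 libraries and 8 were missing from at least 1. A mean of at least 100 counts was reached by 101 names. The filter on low counts admitted 129 names to all 5 main fits and 10 to none of them (RLTR19D, RLTR46A, RLTR46A2, RLTR10D2, RLTR24B_MM, RLTR12F, RLTR13B, RLTR13B4, RLTR48C and RLTR29_MM). Values are counts per 1000000 counts of the same repeat table (CPM). The tables give no lengths and count only next to StyI sites, so a CPM ranks names by their share of counts and not by copies, and copies of a name are pooled, so that many copies changing a little and few changing a lot cannot be told apart.

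The repeat tables held 1676310 to 2665504 counts, which are 3.61% to 4.85% of the counts in the StyI fragment tables of the same libraries. For names with a mean of at least 100 counts the 95% Wilson interval of a share reached at most 25.7% of the value to either side, and for the 30 names with the highest share at most 4.95%, covering counting error only. The names of the repeat tables carry a letter, A for HRS replicates 1 and 3, Loop replicate 2 and D21, B for HRS replicate 2, Loop replicates 1 and 3 and D0, and none for D12. The RLTR profiles of the 6 fraction tables followed that letter and not the fraction. Over the 101 names, the deviations of a table from the name means correlated at 0.56 between HRS replicates 1 and 3, which share fraction and letter, and at 0.71 between the tables labelled HRS replicate 2 and Loop replicate 1, but at -0.69 between HRS replicates 1 and 2 and at -0.69 between Loop replicates 2 and 3 (a description: the deviations share their means, and the tables differ in depth). Other pairs of unlike fraction within a letter correlated less. Loop replicate 2 stood at 0.435 with HRS replicate 1 and at 0.401 with HRS replicate 3. HRS replicate 2 stood at 0.411 with Loop replicate 3. The inputs did not follow the letter: D0, with B, correlated at -0.68, -0.67 and -0.67 with the B tables HRS replicate 2 and Loop replicates 1 and 3, at 0.34, 0.13 and 0.22 with the A tables HRS replicates 1 and 3 and Loop replicate 2, and at 0.73 with D21. The satellites GSAT_MM and SATMIN moved with the letter too, at 3.85% to 4.45% of the table in the A fractions and 0.30% to 0.70% in the B fractions. Among the inputs their share was 2.10% in D21 (A), 1.16% in D12 (no letter) and 0.89% in D0 (B), the same direction with a smaller gap. In the fragment tables the replicate 2 libraries lay with their labels, with 29.3% of counts in fragments up to 200 bp in HRS replicate 2 (28.9% to 32.0% over HRS) and 52.8% in Loop replicate 2 (46.8% to 55.6% over Loop). Call counts for HRS against Loop, for each fraction against input and between letters are therefore also given without replicate 2 repeat tables. Ratios of single names, ranges and counts of tables not overlapping include these tables unless stated otherwise. Without both, the letter and the fraction cannot be told apart, because every remaining HRS table has A and every remaining Loop table has B.

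RLTR names together took 11.02%, 14.9% and 11.8% of the table in HRS replicates 1 to 3, 13.3%, 11.4% and 13.5% in Loop, and 12.3%, 11.9% and 11.9% in the inputs D0, D12 and D21. The HRS and Loop values overlapped, and the highest HRS value was that of the table labelled replicate 2. The means were 12.6% ± 2.08 (SD, n = 3) in HRS, 12.8% ± 1.15 (n = 3) in Loop and 12.03% ± 0.258 (n = 3) in input. The spread came mostly from a few names. Without RLTR6I_MM, RLTR4I_MM and RLTR6B_Mm the share lay between 7.45% and 8.87% in every library, and the table labelled HRS replicate 2 held 8.40% against 7.99% and 8.51% in the other two HRS tables. Across the 101 names the median coefficient of variation was 13.3% over HRS, 14.6% over Loop and 6.55% over input, while it was 7.21% over the 3 fraction tables with A and 10.2% over those with B.

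**Figure D1:**
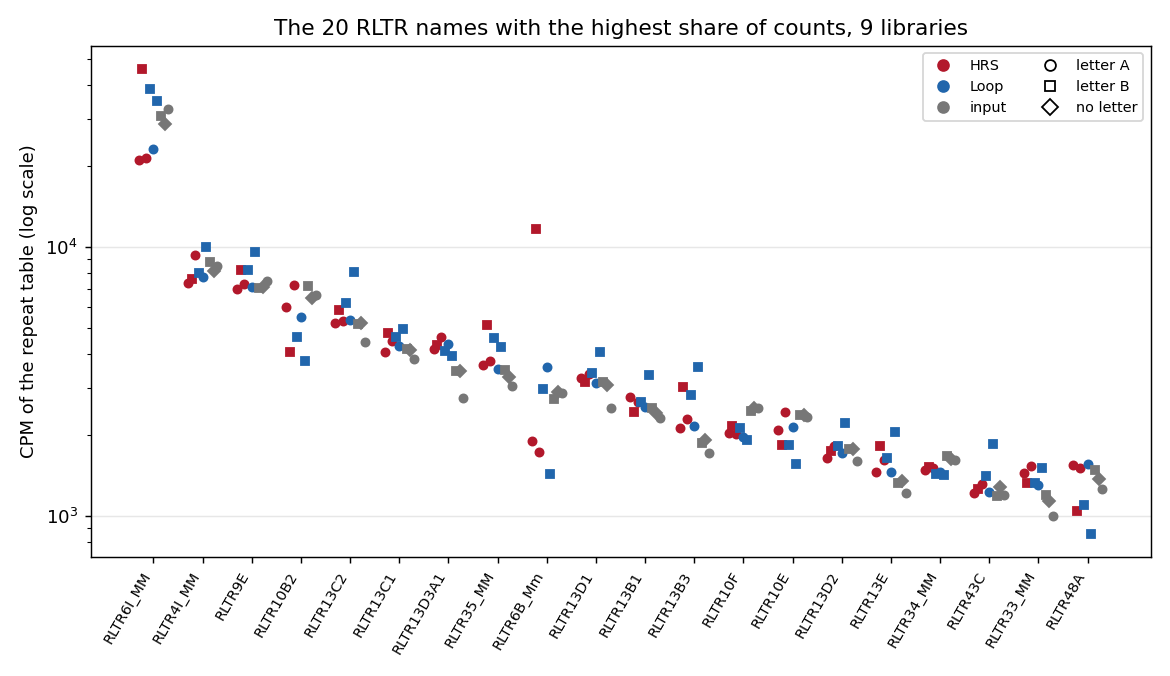
CPM of the repeat table (log scale) for the 20 RLTR names with the highest share of counts. Each point is 1 library, coloured by group and shaped by letter; RLTR6I_MM lies above the other names in every library, and RLTR6B_Mm has 1 HRS point, at 11730, far above its other 8.

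Among the leading names, RLTR9E, an LTR of class ERVK, held 6990, 8231 and 7262 CPM in HRS, 8246, 7101 and 9608 in Loop, and 7028, 7087 and 7448 in input. Within each fraction its B tables were the higher ones. RLTR10B2, also of class ERVK, held 5977, 4056 and 7209 CPM in HRS, 5485 in the A table of Loop, 4621 and 3758 in the B tables of Loop, and 6489 to 7193 in input. Here the B tables were the lower ones. RLTR4I_MM, the internal sequence related to murine leukaemia virus, held 7325 to 9343 CPM in HRS, 7725 to 9980 in Loop and 8127 to 8790 in input, with no separation by fraction or letter. Among other leading ERVK names, RLTR13C2 held 5223 to 5846 CPM in HRS, 5331 to 8099 in Loop and 4428 to 5202 in input, and RLTR13C1 held 4069 to 4794, 4291 to 4958 and 3832 to 4188. RLTR35_MM held 3630, 5131 and 3781 CPM in HRS, 4600, 3527 and 4245 in Loop, and 3038 to 3482 in input, so every fraction table lay above the inputs and the B fractions were highest. The LTR of the RLTR4 group, RLTR4_MM, held 125 to 192 CPM in HRS, 137 to 157 in Loop and 202 to 254 in input, so every input table lay above every fraction table, though no comparison called it.

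The comparison of HRS with Loop asked which repeats stay with the high-salt-extracted nucleus. No RLTR name passed it. Of the 130 RLTR names tested, 0 were called by edgeR's quasi-likelihood test at a Benjamini-Hochberg adjusted p of 0.05, and 0% of all 289 tested names were called. The fraction was the only term of that fit, so differences between the letters counted as spread within a fraction. The 0 calls therefore do not show that the fractions are alike. At an unadjusted p under 0.05 the test found 1 RLTR name, of 2 among all names, and DESeq2 also called 0 RLTR names. The median log2 ratio of HRS over Loop was 0.03 over RLTR names and -0.00 over all names. The highest ratios belonged to RLTR6B_Mm (log2 ratio 0.96 ± 0.81, SE), RLTR16C_MM (0.57 ± 0.49) and RLTR1B_MM (0.50 ± 0.44), and the lowest to RLTR13A (-0.71 ± 0.25), RLTR20B4_MM (-0.38 ± 0.29) and RLTR41B (-0.32 ± 0.47), all with an adjusted p of 0.975 in the same edgeR fit. HRS holds more A tables and Loop more B tables, so letter differences enter these ratios. Within A and within B, each with a lone table on 1 side, RLTR1B_MM had ratios of 0.132 and 0.104. RLTR41B had 0.245 and -0.03, and RLTR16C_MM 0.203 and 0.298. RLTR13A had -0.925 and -0.698, and RLTR20B4_MM 0.08 and -0.616. All 3 HRS tables lay above all 3 Loop tables for 3 RLTR names, against 2.88% of all names, and below them for 3, against 1.28% (4.17% in either direction). The higher names were RLTR34_MM, RLTR50A and RLTR53B_Mm, and the lower ones were RLTR13A, RLTR24B_MM and RLTR48C (chosen after their values were seen). RLTR34_MM held 1480, 1519 and 1500 CPM in HRS against 1435, 1460 and 1422 in Loop, a small gap with a log2 ratio of 0.04 ± 0.08 in the fit. RLTR13A, the single name at an unadjusted p under 0.05, held 13.5, 9.83 and 10.1 CPM in HRS against 15.7, 22.9 and 15.9 in Loop, from a mean of 38.3 counts a table. Without both replicate 2 tables the fit called 34 RLTR names, 16 higher and 18 lower in HRS, of 77 called among 292 names; in it the fraction cannot be told apart from the letter.

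RLTR6B_Mm, an LTR of class ERV1, had the highest coefficient of variation over HRS, 112%, among the 101 names. It held 1894, 11730 and 1725 CPM in HRS, 2973, 3590 and 1424 in Loop, and 2728, 2882 and 2856 in input. The table labelled HRS replicate 2 stood alone, at 4.16-fold of the input mean, and the remaining 5 fraction tables lay on both sides of the inputs. That value rests on 29824 counts, with a 95% Wilson interval of 11598 to 11863 CPM. Its highest table was 4.11-fold of its median over the 9 libraries, and the next of the 101 names in that order were RLTR53_Mm at 2.01-fold, RLTR12G at 1.95-fold, RLTR30D_MM at 1.93-fold and RLTR12H at 1.92-fold, each also highest in HRS replicate 2.

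RLTR6B_Mm was called in neither fraction against input with all tables in the edgeR fits. The log2 ratio was 0.94 ± 0.73 for HRS over input (adjusted p = 0.507) and -0.02 ± 0.28 for Loop over input (adjusted p = 0.949). Without HRS replicate 2 the direction turned: HRS was lower than input by a log2 ratio of -0.60 ± 0.07, with an edgeR adjusted p of 0.000897, and lower than Loop by -0.58 ± 0.35, with an adjusted p of 0.517. Every HRS table left in these fits has A, so HRS stands there for that letter alone. Within each letter the contrast sets 2 tables against 1, and the lone table has no spread of its own. Among the A tables the 2 HRS values, 1894 and 1725 CPM, lay below the lone Loop value of 3590, a log2 ratio of -0.98. Among the B tables the lone HRS value of 11730 lay above the Loop values of 2973 and 1424, a log2 ratio of 2.41, and those 2 Loop tables themselves differed widely. RLTR6B_Mm was the single name called by edgeR in each of these contrasts (0.34% of 294 names and 0.341% of 293), and the calls borrow the spread of other tables and names. The call within A was lost with fragment-table totals (edgeR adjusted p = 0.0872) and that within B with DESeq2 (adjusted p = 0.999). The interaction of fraction and letter, -3.42 on the log2 scale, is the difference between these contrasts and rests on the same lone tables; it was the only call among 133 RLTR names, against 0.339% of all names, and was lost with repeat-table totals (edgeR adjusted p = 0.0607).

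The other RLTR6 names varied in different ways. RLTR6I_MM, the internal sequence, held 21144, 45989 and 21531 CPM in HRS, 38904, 23137 and 34999 in Loop, and 30867, 28798 and 32699 in input. Like RLTR6B_Mm it was highest in HRS replicate 2 and below the inputs in HRS replicates 1 and 3, but all 3 of its B fractions lay above all inputs and all 3 A fractions below them. RLTR6_MM, an LTR name, held 251, 141 and 244 CPM in HRS, 148, 198 and 123 in Loop, and 241, 212 and 231 in input, so it was the B fractions that were low. RLTR6C_Mm held 49.7, 50.0 and 56.1 CPM in HRS, 49.7, 62.6 and 41.5 in Loop, and 71.3, 78.5 and 78.4 in input, all fractions below all inputs. The count ratio of RLTR6I_MM to RLTR6B_Mm was 10.0 to 11.5 in the inputs and ranged from 3.92 in HRS replicate 2 to 24.6 in Loop replicate 3.

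**Figure D2:**
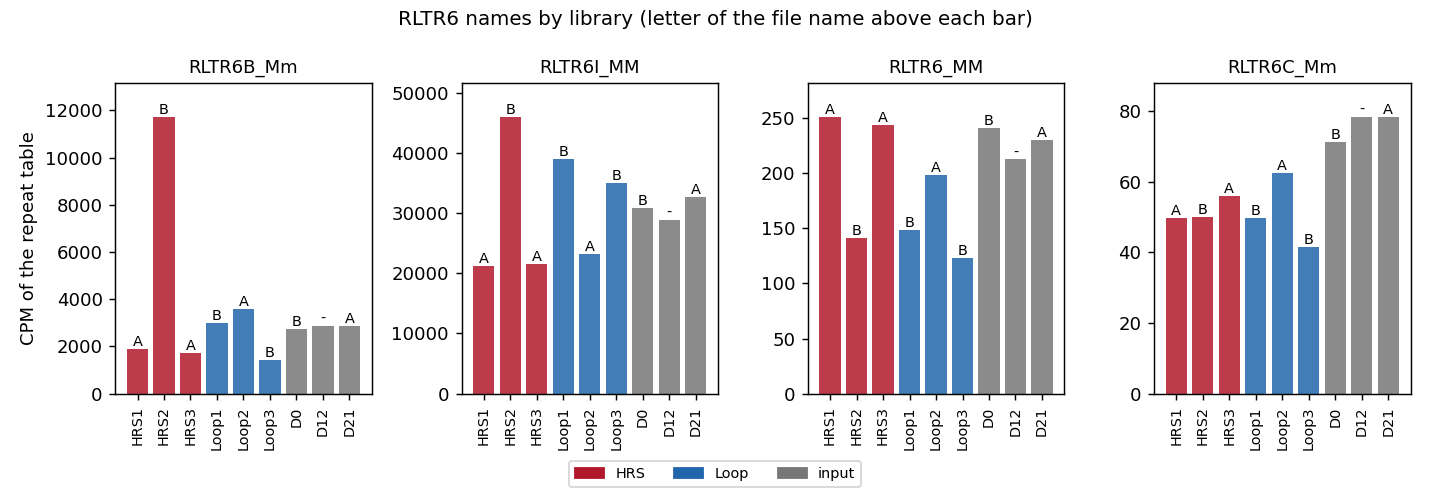
CPM of the repeat table for the 4 RLTR6 names, 1 bar per library, with the letter of the table above each bar and bars coloured by group; each panel has its own scale from 0. RLTR6I_MM is high in the B fractions, RLTR6_MM is low in them, RLTR6C_Mm is highest in the inputs, and RLTR6B_Mm is high only in HRS replicate 2.

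By Spearman correlation over the 9 libraries, the names of at least 100 mean counts whose CPM ran most like that of RLTR6B_Mm were RLTR11C_MM (0.85), the LINE-1 name L1MdA_VI (0.73), RLTR9B2 (0.70), RLTR9A2 (0.63) and RLTR51B_Mm (0.62). Pearson correlations, which weigh the single high table more, were 0.70, 0.65, 0.17, 0.92 and 0.71 in that order. These are descriptions over libraries that share depth and letter. RLTR11C_MM moved far less, from 89.9 to 114 CPM, with its highest value in Loop replicate 2.

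Many RLTR names of the 6 fraction tables were called between the letters. The labels of the replicate 2 repeat tables could not be checked. Were those 2 labels exchanged, A would be HRS and B would be Loop in every fraction table, and the letter contrast would be the HRS to Loop contrast, so the 0 calls for HRS against Loop hold only for the labels as deposited. With the fraction as a term, 42 of 133 RLTR names (31.6%) differed between A and B at an edgeR adjusted p of 0.05, 19 higher in A and 23 higher in B, against 32.1% of all 293 tested names (13% higher in A, 19.1% higher in B). RLTR names therefore differed by letter about as often as repeat names at large. The median log2 ratio of A over B was -0.01 over RLTR names and -0.01 over all names. The split followed the scaling: with repeat-table totals 24 were higher in A and 15 in B, and with fragment-table totals, which moved the median over all names to -0.15, 12 and 34. It also rested on single tables, with 24 calls without HRS replicate 1, 19 without HRS replicate 2 and 28 without Loop replicate 2. Counts under these scalings and without single tables are of RLTR names alone. The comparison with all names is given for the main fit only. All 3 A tables lay above all 3 B tables for 35 RLTR names, against 25.3% of all names, and below them for 24, against 20.8% (46.2% in either direction).

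RLTR1B_MM, of class ERV1, was the clearest of the names higher in A. It held 344, 401 and 340 CPM in the A tables (HRS replicates 1 and 3, Loop replicate 2) and 158, 156 and 135 in the B tables (HRS replicate 2, Loop replicates 1 and 3), with inputs between them at 246, 294 and 247. The log2 ratio was 1.17 ± 0.11 (edgeR adjusted p = 1.24e-05), and the letters did not overlap. Of the RLTR17 names 4 of 4 were higher in A, beside 13% of all tested names, though families were not tested. RLTR17C_Mm was higher by a log2 ratio of 0.78, RLTR17B_Mm by 0.69, RLTR17D_Mm by 0.63 and RLTR17_MM by 0.45. RLTR17C_Mm held 114, 118 and 109 CPM in A against 64.1, 70.7 and 52.8 in B, and its inputs, at 95.7 to 115, were close to the A fractions. RLTR21_MM had the highest ratio, 1.26 ± 0.38, but a mean of only 26 counts a table. Ratios of 0.66 to 0.84 belonged to RLTR1_MM, RLTR30E_MM, RLTR24_MM, RLTR41A2 and RLTR13A2. RLTR1_MM was the single called A name whose tables overlapped, with 30.4 CPM in HRS replicate 3 and 30.6 in Loop replicate 1. RLTR6_MM was higher in A by 0.62 ± 0.13 (edgeR adjusted p = 0.00341) and RLTR10B2 by 0.49 ± 0.12.

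RLTR41B had the largest ratio among names higher in B, -1.25 ± 0.21 (edgeR adjusted p = 0.00102). It held 52.7, 53.9 and 52.4 CPM in the B tables (HRS replicate 2, Loop replicates 1 and 3), 24.0, 26.3 and 21.2 in the A tables and 26.2 to 29.2 in input, so the B fractions stood apart from all others. RLTR53_Mm (-0.97), RLTR12H (-0.96), RLTR6I_MM (-0.95 ± 0.10, edgeR adjusted p = 3.38e-05), RLTR12G (-0.87) and RLTR13D3 (-0.81) followed. RLTR13D3, of class ERVK, held 1813, 1606 and 1628 CPM in the B tables against 1022, 1032 and 1008 in the A tables, and 838 to 964 in input. RLTR9D2, RLTR1D2_MM, RLTR20D_MM and RLTR13B3 had ratios of -0.80 to -0.57. Among the families, 7 of 22 tested RLTR13 names and 4 of 12 RLTR9 names were higher in B, with 2 and 0 higher in A, beside 19.1% and 13% of all names. For RLTR1 the counts were 3 of 8 higher in A and 1 in B. By class, 4 of 14 names of RLTR1, RLTR4 and RLTR6 were higher in A and 2 in B, and of 38 names of RLTR9, RLTR10, RLTR13 and RLTRETN 3 were higher in A and 11 in B. Differences between families or classes were not tested, and the directions depend on the scaling given above. RLTRETN_MM, the ETn LTR, was not called and held 60.2 to 77.6 CPM over the fractions.

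**Figure D3:**
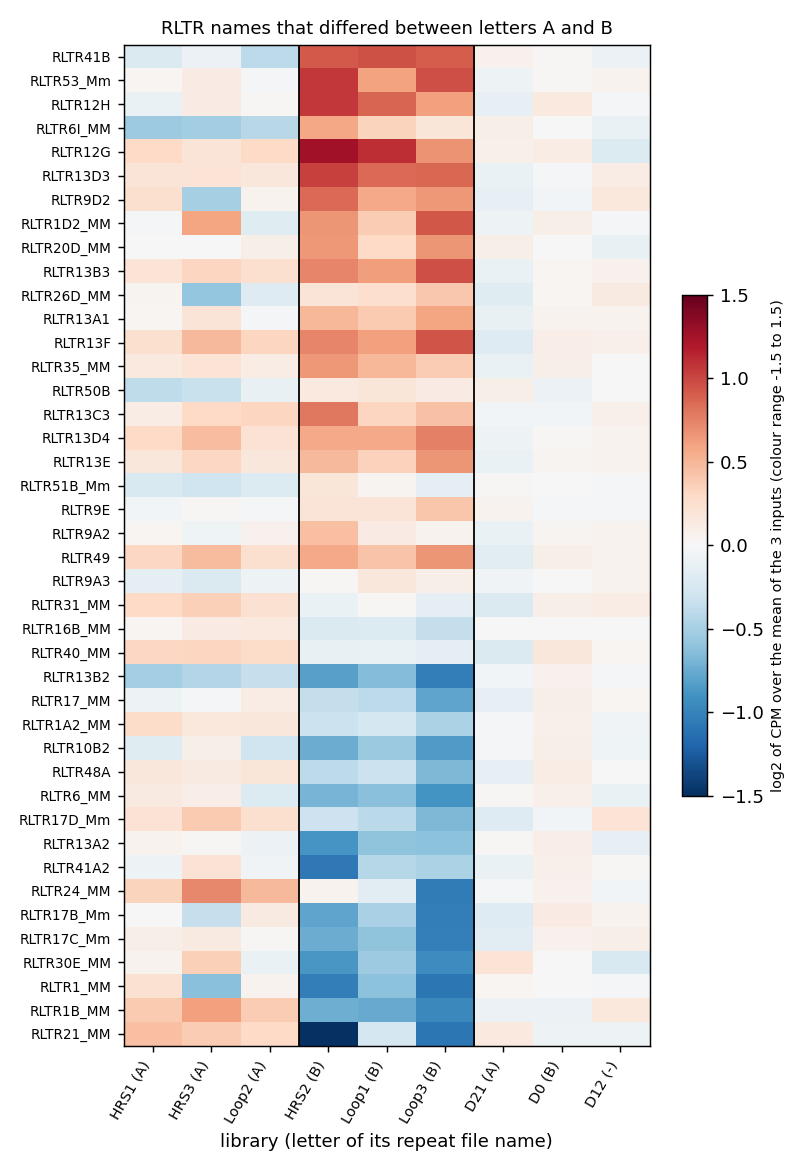
log2 of CPM over the mean of the 3 inputs for the 42 RLTR names that differed between letters, with libraries in columns ordered as A fractions, B fractions and inputs and colours limited to -1.5 to 1.5. The upper names, such as RLTR41B, are red in the B fractions, and the lower names, such as RLTR1B_MM, are blue there, while the input columns are pale in both.

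The inputs did not follow the letter as the fractions did. D21 (A) lay above D0 (B), the direction of the letter, for 5 of the 19 names higher in A. It lay below D0, again the direction of the letter, for 16 of the 23 names higher in B. D21 was thus mostly below D0 in both lists. When D0 and D21 were added to the fit with group as a term, edgeR called 0 RLTR names and 2 names in all, with 33 RLTR names at an unadjusted p under 0.05. Satellite share moved with the letter in the fractions, as given above, and its part in these differences was not tested.

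Comparisons with input asked whether either fraction differs from genomic DNA. In HRS against input, edgeR called 0 of 131 RLTR names (0% of 291 names), with a lowest adjusted p of 0.0868. At an unadjusted p under 0.05 it found 26 RLTR names, of 54 among all 291. DESeq2 called 12 RLTR names, 7 higher and 5 lower in HRS. In Loop against input edgeR called 0 of 130 (0% of 288 names), with a lowest adjusted p of 0.0933. At an unadjusted p under 0.05 it found 41 RLTR names, of 75 among all 288. DESeq2 called 21 RLTR names, 16 higher and 5 lower. The DESeq2 counts are given without the share over all names. Leaving out HRS replicate 2 gave 27 edgeR calls for HRS against input, 18 higher and 9 lower, of 69 among 293 names. Leaving out Loop replicate 2 gave 59 for Loop against input, 38 higher and 21 lower, of 115 among 290 names. The HRS tables left in the former fit all have A, and the Loop tables left in the latter all have B. The inputs hold A, B and no letter. In these fits the fraction cannot be told apart from the letter. The largest uncalled ratios of HRS over input were 1.55 ± 0.41 for RLTR19A2, 0.94 ± 0.73 for RLTR6B_Mm and 0.91 ± 0.29 for RLTR30D_MM on the high side, and -0.85 ± 0.41 for RLTR13A3, -0.71 ± 0.18 for RLTR28_MM and -0.61 ± 0.27 for RLTR13A on the low side. For Loop over input they were 1.69 ± 0.54 for RLTR19A2, 0.81 ± 0.22 for RLTR12G and 0.78 ± 0.24 for RLTR12B2, and -1.10 ± 0.38 for RLTR16C_MM, -0.89 ± 0.57 for RLTR13A3 and -0.87 ± 0.32 for RLTR50A. RLTR19A2 and RLTR13A3 were thus at the ends of both lists, which share the input tables. Median log2 ratios were 0.06 for HRS over input and 0.07 for Loop over input, beside 0.02 and 0.03 over all names. Tables did not overlap for 23 RLTR names with HRS above input and 16 below (12.2% and 17.9% of all names, 30.1% in either direction), and for 24 with Loop above and 24 below (10.6% and 21.8%, 32.4% in either direction).

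Both fractions set together against the inputs do not depend on the labels of the replicate 2 tables, a comparison added after the data were seen. It called 14 of 132 RLTR names by edgeR at an adjusted p of 0.05, 10 higher and 4 lower in the fractions, against 9.25% of all 292 names (5.14% higher, 4.11% lower). The median log2 ratio was 0.05 over RLTR names and 0.03 over all names. All 6 fraction tables lay above all 3 inputs for 17 RLTR names, against 7.69% of all names, and below them for 11, against 13.5% (21.2% in either direction). The calls rested on all 3 inputs: leaving out any 1 input gave 0 RLTR calls (30, 25 and 30 at an unadjusted p under 0.05 without D0, D12 and D21), and leaving out HRS replicate 3 or Loop replicate 1 gave 9 each. The split followed the scaling, with 8 higher and 6 lower for median-of-ratios factors, 7 and 7 for repeat-table totals, and 0 and 5 for fragment-table totals, which moved the median over all names to -0.11. Fractionation and any other difference between the preparation of fractions and inputs cannot be told apart.

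RLTR13D3A1, an ERVK name, was among the 20 leading names and higher in the fractions. It held 4178, 4334 and 4642 CPM in HRS, 4087, 4370 and 3918 in Loop, and 3456, 3470 and 2740 in input. No fraction overlapped an input, and the letter was not called (log2 ratio 0.02 ± 0.09, edgeR adjusted p = 0.904). The log2 ratio of fractions over input was 0.47 ± 0.08 (edgeR adjusted p = 0.0253). RLTR13F (0.66 ± 0.17) and RLTR13D4 (0.57 ± 0.13) were higher too. The 24 RLTR13 names together held 31752 to 41060 CPM in the fractions and 26651 to 30431 in the inputs. RLTR49 (0.53), RLTR33_MM (0.42), RLTR31B_MM (0.37) and RLTR35B_MM (0.35) had smaller ratios with the fraction tables above every input. RLTR30D_MM (0.84 ± 0.23) and RLTR12B2 (0.70 ± 0.19) were higher on 112 and 47 mean counts a table. RLTR19A2 had the highest ratio, 1.63 ± 0.42 (edgeR adjusted p = 0.039), on a mean of 13 counts a table and only 3 counts in D0.

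Of the 4 names lower in the fractions, RLTR5_MM held 793, 703 and 831 CPM in HRS, 809, 805 and 862 in Loop, and 1040, 1077 and 1200 in input, a log2 ratio of -0.40 ± 0.09 (edgeR adjusted p = 0.0256). RLTR10F, of class ERVK, held 1913 to 2159 CPM in the fractions and 2462 to 2528 in the inputs, a narrow but complete separation with a log2 ratio of -0.23 ± 0.06. RLTR13B2 was lower by -0.55 ± 0.12, unlike the other 3 called RLTR13 names, and held 357 to 575 CPM in the fractions and 711 to 765 in the inputs. RLTR6C_Mm was lower by -0.49 ± 0.12. RLTR6B_Mm was not called, at 0.53 ± 0.63.

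**Figure D4:**
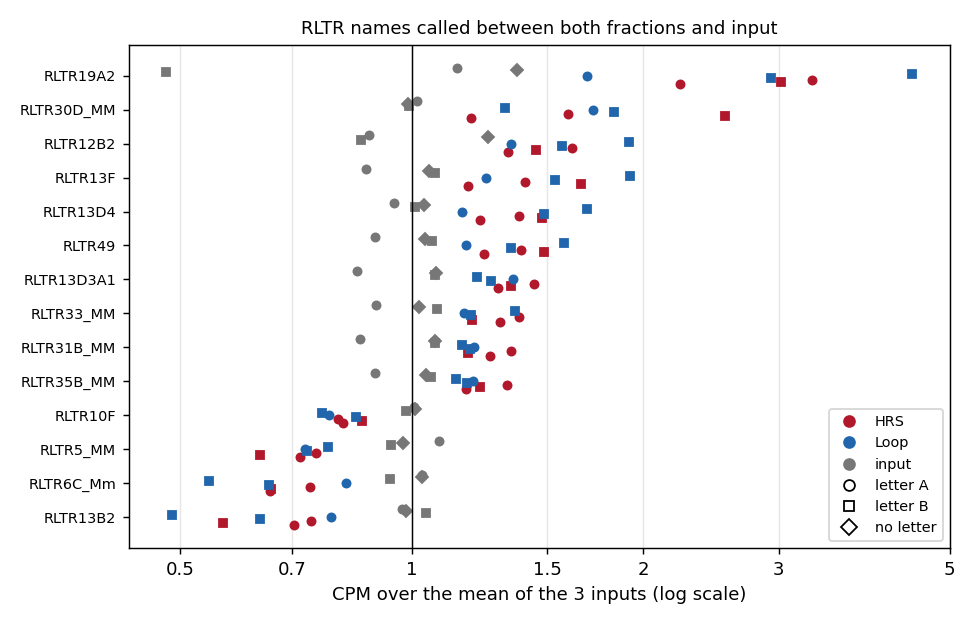
CPM divided by the mean of the 3 inputs (log scale) for the 14 RLTR names called between both fractions and input, 1 point per library, coloured by group and shaped by letter. The 6 fraction points of each name lie on 1 side of its 3 input points; RLTR19A2 reaches the highest ratios.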

How the data were processed

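DNA of 9 libraries was counted by short tags at StyI ends, per the labels' protocols. The authors deposited, per library, whole-number counts per Repbase name and counts per StyI fragment, and names at 0 are left out. CASAVA 1.8.2 and build mm9 are named per the submitters' processing notes. For the aligner, tags with several matches and the Repbase version, nothing is given in the sources used here. Groups came from the titles and the letters A and B from the table names.

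Names were matched in upper case without quotes. Counts were tested with edgeR 4.0.16 (glmQLFit and glmQLFTest, R 4.3.3) over all repeat names with TMM factors, filterByExpr (minimum count 10) and a threshold of 0.05 on the Benjamini-Hochberg adjusted p, using only the tables compared. Standard errors are the log2 ratio over the square root of F. The fits were tested on simulated counts: of 60 names changed 2-fold, 100% were recovered for HRS against Loop (2 false calls) and for the letter (3), 90% for the interaction (0) and 95% within A (1). Their spread was set in advance and not taken from the libraries, and names with few counts were not changed. For HRS against Loop they held no difference between letters. The recovery there thus does not show that a 2-fold change would be called in the deposited tables. Alternatives were other scalings (median-of-ratios, repeat-table and fragment-table totals), no filter, satellites left out, an adjusted p of 0.01, all tables in 1 fit, DESeq2 1.42.0, the replicate block, the letter as a term, and each table left out. Both fractions against input, and the letter as a term with D12 left out, were added after seeing the data. The members and lists were chosen with earlier results of these data known.

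Named were RLTR6B_Mm, the 8 names with the highest mean share, and in each comparison up to 10 called names in each direction by size, or the 3 most extreme where fewer than 3 were called. Other names were chosen after their values were seen: RLTR4_MM, RLTR6_MM, RLTR6C_Mm, RLTR17_MM, RLTRETN_MM, RLTR34_MM and RLTR53_Mm beside their family or count.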

Additional observations from a re-analysis of the deposited data

Results flagged for a closer look

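RLTR6B_Mm had an interaction of fraction and letter of -3.42 on the log2 scale, from -0.98 within the A tables and 2.41 within the B tables, and was picked out because the edgeR adjusted p of that difference was 7.51e-06. Each letter holds 1 lone table (Loop replicate 2 in A, HRS replicate 2 in B), so the p-value does not measure the spread of this name in those tables, and the value rests largely on the 11730 CPM of HRS replicate 2. With repeat-table totals the adjusted p was 0.0607. RLTR6B_Mm was also singled out by name before this comparison was made. Groups held 3 tables each, so single tables were not tested for standing apart.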

How the results depend on the processing

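Counts in this section are of RLTR names alone. Calls of the fits with the letter as a term, for HRS against Loop and for either fraction against input, are not given here. For HRS over Loop that fit had a median log2 ratio of 0.008 over all names and 0.031 over RLTR names. For HRS against Loop, every scaling, the filter, DESeq2, the replicate block and each single table left out gave 0 RLTR calls. None of these fits held the letter as a term. Leaving out both replicate 2 tables gave 34. HRS against input gave 0 calls except 12 by DESeq2 and, with each table left out in turn, 0 to 27. Loop against input gave 0 except 13 with fragment-table totals, all lower in Loop, 21 by DESeq2 and, with each table left out in turn, 0 to 59. The 42 calls between letters became 17 at an adjusted p of 0.01, 0 with the D0 and D21 inputs added, 19 to 48 with each table left out and 39 to 46 under other scalings. The 14 calls for both fractions against input became 5 with fragment-table totals, 23 by DESeq2, 0 at an adjusted p of 0.01, 8 for the average of both fraction means, and with each table left out 9 to 16 for a fraction and 0 for each input. The 1 interaction call became 0 with repeat-table totals, the 1 within A became 0 with fragment-table totals and the 1 within B became 0 by DESeq2. Direction turned to a called difference in 2 named ratios, both for HRS over input without HRS replicate 2: RLTR6B_Mm to -0.60 (-0.60 to 1.38 with each table left out) and RLTR6I_MM to -0.49 (edgeR adjusted p = 0.00327; -0.49 to 0.23 with each left out). The cause was not tested. Fewer tables enter the fits that leave one out, and their letters change too. Without HRS replicate 2 every HRS table has A, and without Loop replicate 2 every Loop table has B. The fraction cannot be told apart from the letter in those fits. The summed share was 5732, 5201 and 5366 per 1000000 fragment counts in HRS, Loop and input, and 11.7% in input without RLTR6B_Mm.

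Same-numbered HRS and Loop tables deviated in opposite directions over 234 names (correlations -0.56, -0.80 and -0.55), but the letter differs within every one of these pairs, and tables of unlike number and letter gave similar values (-0.60 for HRS replicate 1 with Loop replicate 3), so pairing by number was neither shown nor excluded. With the replicate block the letter fit called 53 RLTR names, 42 of them shared with the fit without it, counted over RLTR names alone. The block added RLTR6B_Mm at a log2 ratio of -0.995, against -1.05 ± 0.56 (edgeR adjusted p = 0.188) without it. With the block nearly every table is taken up by a term, so that call does not measure the spread of this name. Its ratio rests largely on HRS replicate 2. The 10 RLTR names in no fit had too few counts for a comparison at this depth.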
